A study of Mus musculus with 6 samples.

Results

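Transcripts for 7 chemokines and 3 cytokines of the IL-6 family were followed in CNOT3-depleted and control MEFs before and after transcription was blocked. The genes were Ccl2, Ccl5, Ccl7, Cxcl1, Cxcl5, Cxcl10, Cxcl12, Il6, Lif and Il11. They were taken by gene symbol, at every probe set that the platform annotation assigns to exactly 1 of these genes, which gave 15 of the 45037 probe sets and 10 of the 18193 named genes. The MEFs were primary fibroblasts from mouse embryos that carried floxed CNOT3 alleles in both cultures. CNOT3-depleted MEFs (CNOT3KD in the labels) received a retrovirus for Cre, control MEFs received the mock virus, and both were selected with puromycin over 2 days. The controls are wild type by the labels and floxed by the study's methods, which were followed here. Each culture was measured untreated (0 h) and again 6 and 12 h into treatment with actinomycin D (Act. D), in 6 conditions of 1 array apiece. No difference therefore has a replicate check, neither an error nor a p-value can be given, and precision is limited by the few arrays. The sources used here do not give the age of the embryos.

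Chemokines are small secreted proteins that guide leukocytes through G protein-coupled receptors, and the CC and CXC groups are told apart by the spacing of their first cysteines. IL-6, LIF and IL-11 signal through receptors that share the gp130 subunit, encoded by Il6st, and activate STAT3. Many of these mRNAs carry AU-rich elements, through which proteins such as tristetraprolin (Zfp36) recruit the CCR4-NOT deadenylase that CNOT3 belongs to. Fibroblasts make most of these factors when stimulated by TNF, IL-1 or interferon, and make CXCL12 constitutively.

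Cnot3, the gene removed by Cre, had signals of 239.6, 128 and 82.9 at 0, 6 and 12 h in CNOT3-depleted MEFs, against 436, 193 and 198 in control MEFs. At a dimmer Cnot3 probe set CNOT3-depleted MEFs had 227, 90.7 and 92.6, against 204, 201 and 279 in control MEFs, and whether either probe set reads the floxed exons is unknown here. All values are MAS5 signals on a linear scale, and every array had nearly the same trimmed mean as deposited (494 to 497). Percentages left are therefore relative to the RNA that remains and can exceed 100%. The 25th percentile of signal lay between 13.6 and 19.8 on the arrays. Lower signals are called near background here, and folds against them are bounds. Of the 15 probe sets, 12 were above this level on all arrays. Fibroblast markers were bright in both cultures, and 0 of 11 measured differed by more than 1.5-fold at 0 h. Because whole cultures were measured, fewer cells of a type and less RNA per cell cannot be told apart.

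At 0 h, 2 of the 15 probe sets exceeded control MEFs by over 1.5-fold after CNOT3 depletion, those of Ccl7 and Cxcl10, as did 18.6% of all probe sets. Another 7 were more than 1.5-fold lower, against 22.1% of all probe sets, and these belonged to Ccl5, Cxcl1, Cxcl5, Cxcl12 (a pair), Il6 and Lif. Of these 7, those of Ccl5 and Lif rested on a signal near background. After 6 h of Act. D, 4 were higher and 4 lower, against 29.1% and 26.4% of all probe sets. Of the 4 higher at 6 h, the dim probe sets of Lif and Cxcl12 rested on signals near background, and 2 were left with these raised to the 25th percentile. After 12 h, 4 were higher and 7 lower, against 27.9% and 37.7%. Read at the brightest probe set of each gene, the median log2 fold over the 10 genes was -0.31 at 0 h, against 0.06 over all named genes. With 10 genes and 1 array per condition these shares describe the arrays only.

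**Figure D1:**
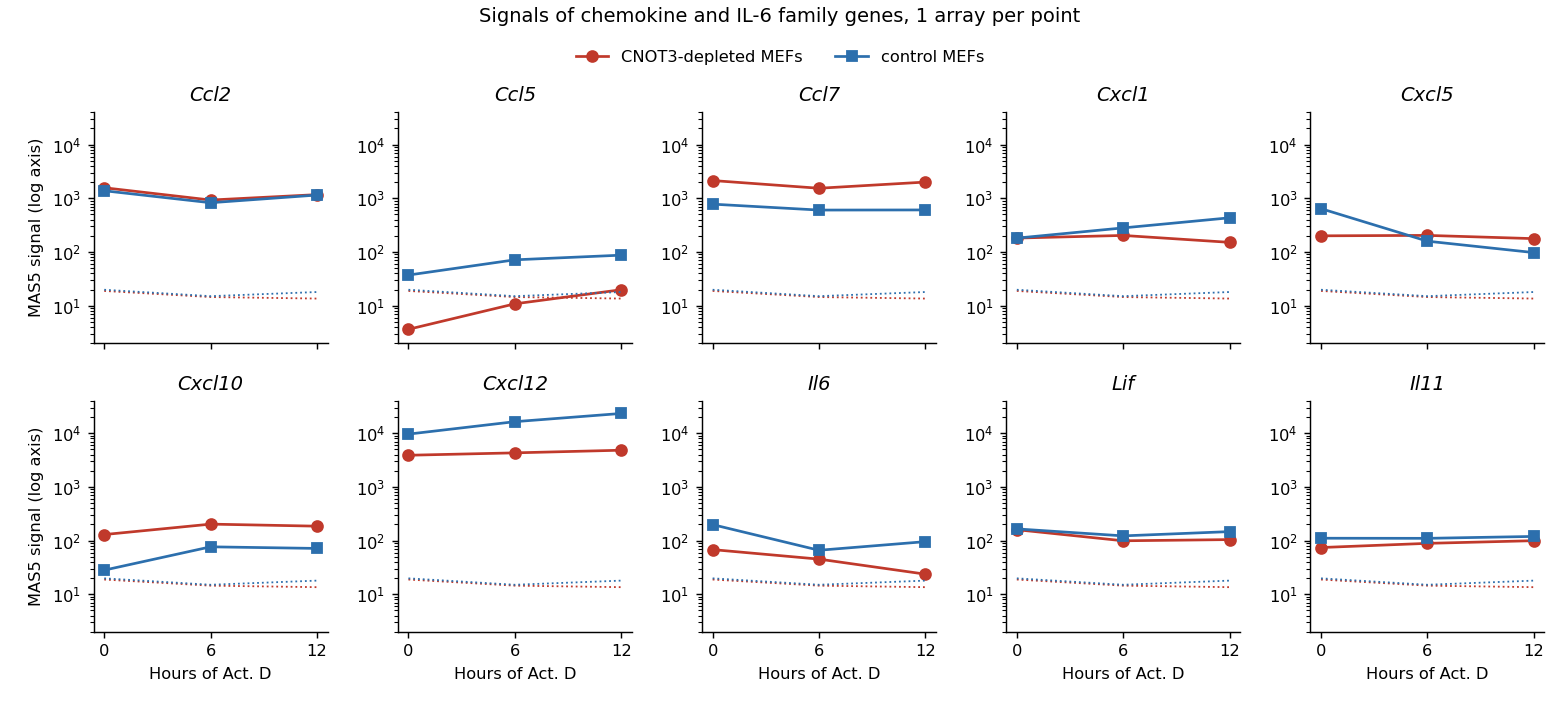
MAS5 signal (log axis) of each of the 10 genes at its brightest probe set, against hours of Act. D, in CNOT3-depleted MEFs (red circles) and control MEFs (blue squares), each point being 1 array and the dotted lines marking the 25th percentiles. Ccl7 and Cxcl10 lie higher in CNOT3-depleted MEFs at all 3 times and Cxcl12, Il6 and Ccl5 lie lower, while the lines of Cxcl5 cross between 0 and 6 h.

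Ccl7, which encodes MCP-3, a chemokine for monocytes, was higher in CNOT3-depleted MEFs at every time. Its signal was 2144, 1540 and 2007 at 0, 6 and 12 h in CNOT3-depleted MEFs, against 779, 604 and 607 in control MEFs. This was 2.75-fold, 2.55-fold and 3.30-fold higher. The fraction that remained was 71.9% and 93.6% in CNOT3-depleted MEFs, set against 77.6% and 78.0% for control MEFs. The log2 stabilization, which compares the fractions left (CNOT3-depleted over control, log2, mean of 6 and 12 h), was 0.08, or -0.56 with quantile normalization. Ccl2, which encodes MCP-1 and lies next to Ccl7 in the chemokine cluster on chromosome 11, was within 1.5-fold at all 3 times. Its signal was 1574, 929 and 1172 in CNOT3-depleted MEFs, against 1383, 828 and 1151 in control MEFs. The cultures differed by 1.14-fold, 1.12-fold and 1.02-fold, and Ccl2 kept 74.4% at 12 h in CNOT3-depleted MEFs and 83.2% in control MEFs. Elsewhere in that cluster, Ccl12 was at 26.6 in CNOT3-depleted MEFs and near background in control MEFs at 0 h, at least 1.34-fold higher. Ccl8 had 66.7 in CNOT3-depleted MEFs and 84.4 in control MEFs, a log2 difference of -0.34.

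Ccl5, which encodes RANTES, a chemokine for T cells and monocytes, was low in both cultures and lower after CNOT3 depletion. Its signal was 3.63, 10.8 and 19.8 at 0, 6 and 12 h in CNOT3-depleted MEFs, near background at 0 and 6 h, against 37.2, 71.5 and 87.3 in control MEFs. It was at least 1.98-fold lower at 0 h, at least 4.94-fold lower at 6 h and 4.41-fold lower at 12 h. In control MEFs its share of the remaining RNA grew to 192% and 235% of 0 h.

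Cxcl10, which encodes IP-10, an interferon-induced chemokine for activated T cells, was the member furthest above control MEFs at 0 h. Its signal was 129.6, 203 and 186 at 0, 6 and 12 h in CNOT3-depleted MEFs, against 28.1, 76.6 and 71.5 in control MEFs. It was 4.60-fold higher at 0 h and 2.65-fold and 2.60-fold higher at 6 and 12 h. Relative to 0 h the signal was at 156% and 143% in CNOT3-depleted MEFs, against 272% and 254% in control MEFs, so the fold between the cultures narrowed. Its log2 stabilization was -0.81. Cxcl9, of the same cluster on chromosome 5 and also induced by interferon, was near background in both cultures at 0 h. Cxcl11, which shares the receptor CXCR3 with them and was named with its values in view, had 44.9 in CNOT3-depleted MEFs and 25.7 in control MEFs at 0 h, 1.75-fold higher.

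Cxcl12, which encodes SDF-1, the ligand of CXCR4, was lower in CNOT3-depleted MEFs at both of its bright probe sets. The brighter had 3890, 4311 and 4828 at 0, 6 and 12 h in CNOT3-depleted MEFs, against 9634, 16422 and 23360 in control MEFs. It was 2.48-fold lower at 0 h, 3.81-fold lower at 6 h and 4.84-fold lower at 12 h. The other had 2202, 1835 and 1636 in CNOT3-depleted MEFs, against 5100, 5761 and 5923 in control MEFs, and was 2.32-fold, 3.14-fold and 3.62-fold lower. At these probe sets 124% and 74.3% of the 0 h signal was left at 12 h in CNOT3-depleted MEFs, against 242% and 116% in control MEFs. A dim probe set of Cxcl12 did not share the pattern, with 47.8, 21.7 and 50.9 in CNOT3-depleted MEFs, set against 32.2, 11.4 and 61.5 for control MEFs.

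Cxcl1 and Cxcl5 encode neutrophil chemokines that bind CXCR2, and both lie in a CXC cluster on chromosome 5. The Cxcl1 probe set whose suffix marks a single transcript had 66.6, 64.9 and 165 at 0, 6 and 12 h in CNOT3-depleted MEFs, against 164, 171 and 375 in control MEFs. It was 2.46-fold, 2.64-fold and 2.27-fold lower. The brightest Cxcl1 probe set carries the suffix for probes that can cross-hybridize, and it had 182, 203 and 151 in CNOT3-depleted MEFs, against 181, 281 and 433 in control MEFs. Another, which can detect several transcripts, had 139.9, 211 and 192 in CNOT3-depleted MEFs, against 206, 225 and 334 in control MEFs. The 3 probe sets thus disagreed at 0 h, where only the first was past 1.5-fold, while at 12 h all were lower in CNOT3-depleted MEFs, by 2.27-fold, 2.87-fold and 1.74-fold.

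Cxcl5 was the only member that met the rule for a stabilized mRNA. Its signal was 200.1, 204 and 177 at 0, 6 and 12 h in CNOT3-depleted MEFs, against 642, 159 and 97.5 in control MEFs. It was 3.21-fold lower in CNOT3-depleted MEFs at 0 h, but 1.28-fold and 1.82-fold higher at 6 and 12 h. It kept 102% and 88.6% of its 0 h signal in CNOT3-depleted MEFs, against 24.8% and 15.2% in control MEFs, a log2 stabilization of 2.29. The rule asks for a mean log2 signal at 0 h at or above the median, a CNOT3KD ratio of 6 h to 0 h between 0.5 and 2.0, and, at 6 and at 12 h, a fraction left no less than 2.0 times the control value. Of the 11 member probe sets at or above the median, 1 met it, close to the 8.89% of all such probe sets. With the cultures exchanged 0 met it, against 0.857% of all. Ppbp, the neighbour of Cxcl5 and also a CXCR2 ligand, had 232, 263 and 276 in CNOT3-depleted MEFs, set against 409, 478 and 678 for control MEFs. It was lower at all 3 times and did not decline in either culture. Elsewhere in the cluster, Cxcl15 was 2.45-fold higher at 0 h, and Pf4, Cxcl3 and Cxcl2 were within 1.5-fold.

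**Figure D2:**
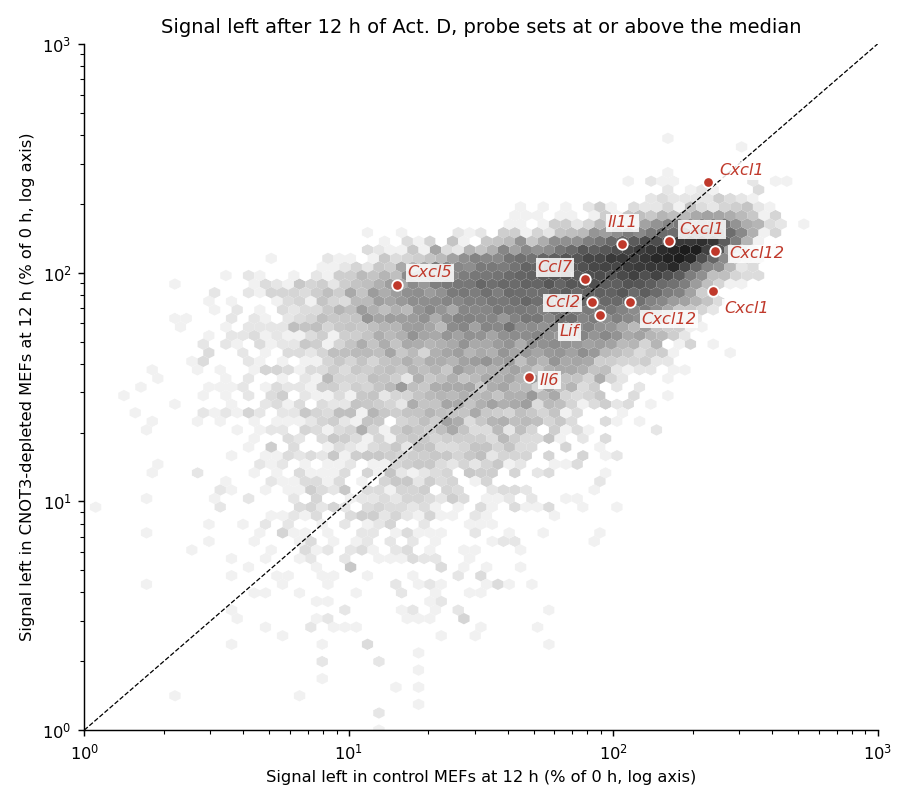
Signal left after 12 h of Act. D in percent of 0 h (log axes), CNOT3-depleted MEFs on the vertical axis against control MEFs on the horizontal axis, for probe sets in the brighter part of the 0 h signals (from the median up), with darker grey for more probe sets, the dashed line at equality and the 11 member probe sets in red. Cxcl5, where 88.6% was left in CNOT3-depleted MEFs and just 15.2% in control MEFs, stands far above the line, and the other members lie near or below it.

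Il6, the acute-phase cytokine that names the family, was lower in CNOT3-depleted MEFs at all 3 times. Its signal was 68.0, 45.2 and 23.7 at 0, 6 and 12 h in CNOT3-depleted MEFs, against 199, 66.1 and 95.6 in control MEFs. It was 2.92-fold lower at 0 h, 1.46-fold lower at 6 h and 4.03-fold lower at 12 h. The signal left was 66.5% and 34.9% in CNOT3-depleted MEFs, set against 33.3% and 48.1% for control MEFs, so the culture that kept more changed between the times. The log2 stabilization was above 0 from 6 h alone and -0.46 from 12 h alone.

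Lif and Il11 differed little. Lif, the cytokine that keeps mouse embryonic stem cells undifferentiated, had 159.5, 99.2 and 104 at 0, 6 and 12 h in CNOT3-depleted MEFs, against 165, 122 and 147 in control MEFs at its brighter probe set. It was 1.04-fold lower at 0 h, a direction that turned with each of the 3 other scalings of the arrays. Its dimmer probe set was near background on 4 of the 6 arrays. Il11, a cytokine of bone and stromal tissue, had 74.3, 88.9 and 99.6 in CNOT3-depleted MEFs, against 111, 110.2 and 119.6 in control MEFs. It was 1.49-fold lower at 0 h, just short of the fold used, and 1.24-fold and 1.20-fold lower after Act. D. At the brighter Lif probe set and that of Il11, the lowest fraction left was 62.2%, for Lif at 6 h in CNOT3-depleted MEFs.

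**Figure D3:**
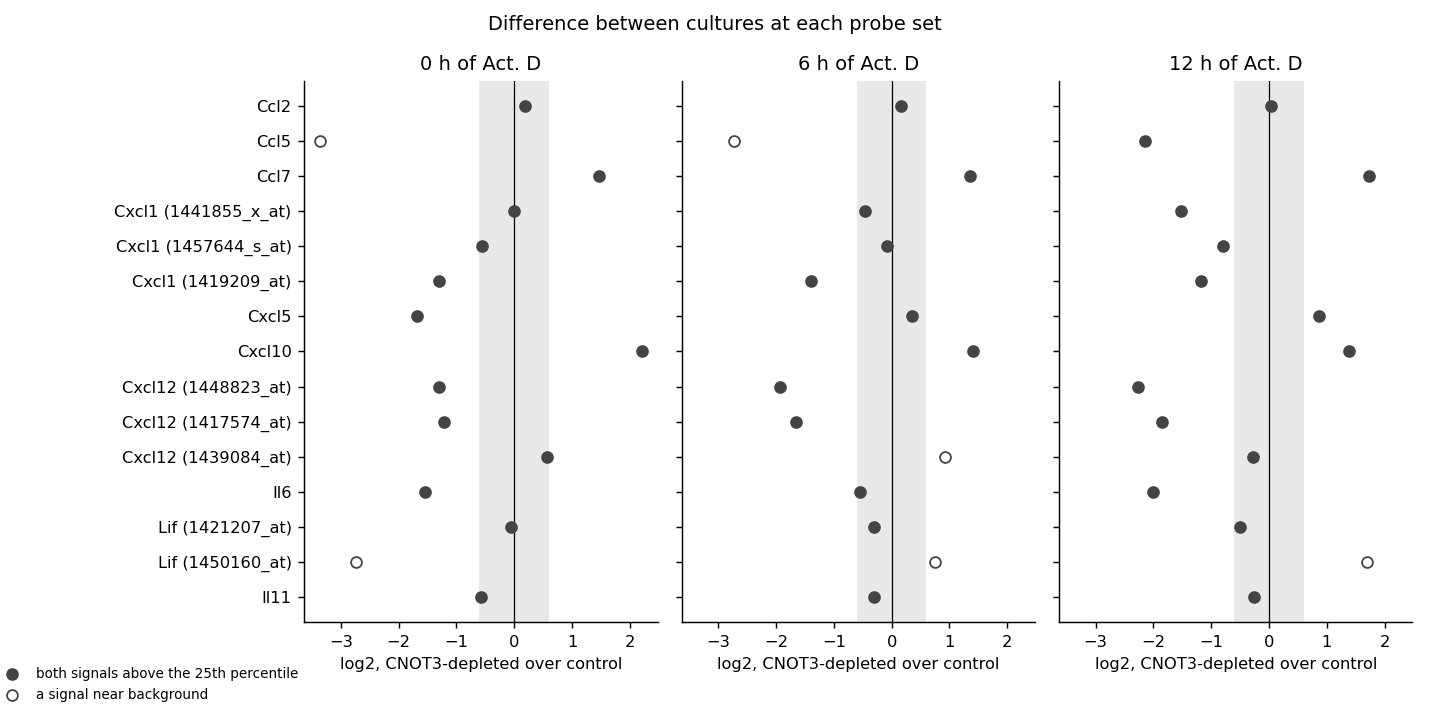
Log2 fold (CNOT3-depleted over control MEFs, horizontal axis) for each of the 15 probe sets, by hour of Act. D, from 1 array per culture and time, the grey band within 1.5-fold and open circles where at least 1 of the 2 signals was near background. Ccl7 and Cxcl10 lie to the right at every time, Cxcl12 to the left at its bright probe sets, and Cxcl5 moves from -1.68 at 0 h to 0.86 at 12 h.

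Promoter sequences are shown for the NF-kB-responsive genes Cxcl10 (higher), Il6 (lower) and Cxcl1 (lower at 12 h) and for Cxcl12, the constitutive chemokine that was lower. They come from RefSeq (GRCm38.p6), run 5′ to 3′ from 250 bases before to 50 bases after the start of each gene, and stand at chr5:92348840-92349139 on the minus strand, chr5:30012864-30013163 on the plus strand, chr5:90890995-90891294 on the plus strand and chr6:117168285-117168584 on the plus strand. Capitals mark matches, on either strand, to the kappaB consensus bound by NF-kB, to the interferon response motif (GAAA, any 2 bases, GAAA), to the AP-1 motif TGANTCA and to the GC box GGGCGG.
Cxcl10: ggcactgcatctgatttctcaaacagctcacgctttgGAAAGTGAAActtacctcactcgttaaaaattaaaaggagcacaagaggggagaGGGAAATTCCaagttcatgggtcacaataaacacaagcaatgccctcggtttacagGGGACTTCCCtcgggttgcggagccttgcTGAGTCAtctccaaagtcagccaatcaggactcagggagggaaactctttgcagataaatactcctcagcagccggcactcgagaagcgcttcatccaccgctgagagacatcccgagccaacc
Il6: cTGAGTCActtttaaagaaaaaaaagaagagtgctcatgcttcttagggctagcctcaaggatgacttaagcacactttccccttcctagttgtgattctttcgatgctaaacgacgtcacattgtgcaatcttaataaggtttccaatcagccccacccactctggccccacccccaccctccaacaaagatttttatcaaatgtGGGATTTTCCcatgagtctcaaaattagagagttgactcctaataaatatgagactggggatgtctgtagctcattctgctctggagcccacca
Cxcl1: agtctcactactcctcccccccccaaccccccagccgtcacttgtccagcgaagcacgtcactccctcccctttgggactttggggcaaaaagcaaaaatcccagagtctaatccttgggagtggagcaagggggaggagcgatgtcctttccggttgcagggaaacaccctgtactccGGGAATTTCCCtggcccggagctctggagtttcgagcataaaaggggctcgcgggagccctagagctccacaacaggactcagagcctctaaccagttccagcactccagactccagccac
Cxcl12: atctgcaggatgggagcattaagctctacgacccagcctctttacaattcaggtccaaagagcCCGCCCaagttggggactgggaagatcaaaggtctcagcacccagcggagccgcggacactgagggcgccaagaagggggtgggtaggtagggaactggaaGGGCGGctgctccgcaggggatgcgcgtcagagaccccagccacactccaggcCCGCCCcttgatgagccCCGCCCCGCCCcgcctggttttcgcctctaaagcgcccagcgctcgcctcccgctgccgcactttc

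The kappaB consensus was found 44 bases before the start of Il6, at 71 and 70 bases in Cxcl1, where a match on each strand overlaps, and at 159 and 103 bases in Cxcl10. It was found in 4.51% of all 32851 promoter windows in the table. The interferon response motif was found in Cxcl10 alone among the members with a sequence, 213 bases before the start, and in 3.44% of all windows. The AP-1 motif was found in Cxcl10 at 74 bases and in Il6 at 249 bases before the start, as well as in Lif and in 1 of the windows of Il11, and in 7.81% of all windows. Cxcl12 had 5 GC boxes, between 187 and 11 bases before the start, and none of the other 3 motifs, while 35.7% of all windows held a GC box. Genes with a kappaB match were thus found on both sides, Cxcl10 higher at 0 h and Il6 lower. A match is a description of the letters, and no match says only that they are not in this window. The table holds windows for 6 members, and Ccl2, Ccl5, Ccl7 and Cxcl5 are without one.

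The genes around these ligands were read from lists, each gene at its brightest probe set, beside 19.5% of all named genes that were more than 1.5-fold higher at 0 h, 15.7% that were lower and 6.44% that were stabilized. Of 28 other chemokine genes measured, 7 were higher in CNOT3-depleted MEFs, 5 were lower and 0 were stabilized. The rule for a stabilized mRNA could reach just 11 of the 28, the rest being under the median at 0 h. Of the genes past the fold, 2 were near background in both cultures, and the 25th percentile floor left 5 higher and 4 lower. Ccl20, a chemokine for dendritic and Th17 cells, had 113 in CNOT3-depleted MEFs and 38.7 in control MEFs at 0 h, 2.90-fold higher. Xcl1 was at least 4.68-fold lower at 0 h, with 16.9 in CNOT3-depleted MEFs, near background, and 88.1 in control MEFs. At 6 h it was 2.11-fold higher, with 44.1 in CNOT3-depleted MEFs and 20.9 in control MEFs, and at 12 h 2.29-fold lower. Among 20 chemokine receptor genes, 5 were higher and 5 lower, or 3 and 2 with the 25th percentile floor. Ccr8 and Ccr9, among those counted, were near background in both cultures. The largest differences among receptors above the 25th percentile in at least 1 culture were those of Cxcr4, Cxcr2 and Ccr7. Each of these had the other culture near background. The brightest receptors were Cxcr6, the receptor of CXCL16, and Ackr3, a scavenging receptor of CXCL12, named here after their values were seen. Cxcr6 had 930.5, 476 and 524 at 0, 6 and 12 h in CNOT3-depleted MEFs, against 237, 109.9 and 71.7 in control MEFs. Ackr3 had 2900, 2163 and 2120 in CNOT3-depleted MEFs, against 2534, 1082 and 499 in control MEFs. It kept 74.6% and 73.1% at 6 and 12 h in CNOT3-depleted MEFs, against 42.7% and 19.7% in control MEFs. At 6 h this was under the 2.0 times of the rule, so Ackr3 was not called stabilized. Of the 20 receptors 0 were stabilized, and the rule could reach just 4.

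On the side of IL-6 signalling, Il6st, which encodes gp130, had 1327, 1464 and 1686 at 0, 6 and 12 h in CNOT3-depleted MEFs, against 2363, 3154 and 3010 in control MEFs, 1.78-fold lower at 0 h. Il6ra, the IL-6 receptor itself, had 139.95 in CNOT3-depleted MEFs and 73.8 in control MEFs at 0 h, 1.90-fold higher, and Cntfr was at least 2.17-fold higher. Socs3, the STAT3-induced inhibitor of gp130 signalling, had 307 in CNOT3-depleted MEFs and 539 in control MEFs at 0 h, 1.76-fold lower. In all, 2 of 14 receptor and signalling genes were higher and 2 lower. Of 12 STAT3 target genes 0 were higher and 2 lower, Socs3 and the kinase gene Pim1, which was 1.72-fold lower. Cebpd, a transcription factor gene induced by STAT3, had 1104 in CNOT3-depleted MEFs and 1467 in control MEFs. Of 4 other genes measured for ligands of the family or their subunits, Ebi3 was past 1.5-fold but near background in both cultures. Clcf1, Ctf1 and Osm were within 1.5-fold.

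Upstream of the members, 5 of 19 genes for inducers and sensors were higher and 2 lower at 0 h. Ifih1, which encodes the RNA sensor MDA5, had 624 in CNOT3-depleted MEFs and 116.5 in control MEFs, 5.36-fold higher. The genes for the inducers Il1a and Ifng were near background in 1 of the cultures, at 25.9 in CNOT3-depleted MEFs and 3.29 in control MEFs for Il1a and at 3.86 in CNOT3-depleted MEFs against 20.2 in the controls for Ifng. Tnfrsf1a, the TNF receptor, and Rigi, an RNA sensor, were stabilized, with 57.1% and 129% left at 12 h in CNOT3-depleted MEFs, against 12.6% and 39.4% in control MEFs. Of 12 genes of NF-kB subunits and inhibitors, 4 were higher and 2 lower. Rela, the transactivating subunit, had 3176 in CNOT3-depleted MEFs and 1888 in control MEFs at 0 h, 1.68-fold higher, and was stabilized, with 68.9% left at 12 h in CNOT3-depleted MEFs and 18.3% in control MEFs. Nfkb2, read at a probe set with the suffix for probes that can cross-hybridize, was 1.77-fold higher at 0 h. After 6 and 12 h it was 4.72-fold and 1.84-fold lower. Nfkbiz, a cofactor needed for Il6 transcription, had 790 in CNOT3-depleted MEFs and 1569 in control MEFs at 0 h, 1.99-fold lower. Of 13 regulators of cytokine mRNA decay, a list that holds stabilizing proteins (Arid5a, Elavl1) beside decay factors, 0 were higher, 4 were lower and 0 were stabilized. With median or ribosomal protein scaling 2 were lower, Arid5a and Zc3h12c, against 13.8% and 13.0% of all named genes. Of the 4, Zfp36l2, a paralogue of tristetraprolin, was lower by 1.55-fold and Zc3h12c, of the Regnase family, by 1.94-fold. Hnrnpd, the AU-rich element binding protein AUF1, was lower by 1.54-fold and Arid5a, which protects Il6 mRNA, by 2.36-fold. The rule for a stabilized mRNA could reach 12 of the 13 regulators. The other, Zc3h12a, was under the median at 0 h. It kept 59.2% and 67.7% at 6 and 12 h in CNOT3-depleted MEFs, against at most 20.6% and 24.6% in control MEFs.

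**Figure D4:**
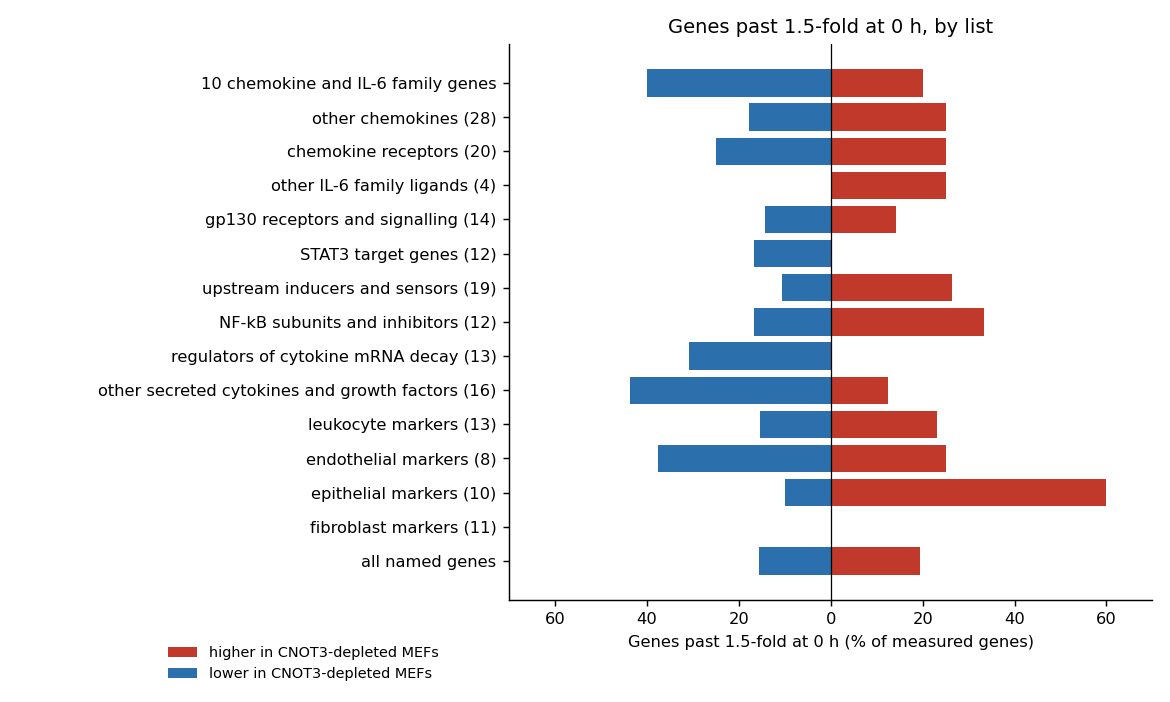
Share of the measured genes of each list (number measured in parentheses) that were more than 1.5-fold higher (red, to the right) or lower (blue, to the left) in CNOT3-depleted MEFs at 0 h, in percent, with 1 array per culture and all named genes in the bottom row. The 10 chemokine and IL-6 family genes had 2 higher and 4 lower, and of these 4 Ccl5 rested on a signal near background. Of all named genes 19.5% were higher and 15.7% lower. The decay regulators had 0 higher and 4 lower (2 with median or ribosomal protein scaling), while no fibroblast marker is past the fold.

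Markers of other cells that make chemokines were set beside these values. Of 13 leukocyte markers, 3 were higher at 0 h, Cd68, Tyrobp and Cd14, and 2 were lower, Itgam and Aif1, both near background in both cultures. Cd68 had 265, 297 and 359 in CNOT3-depleted MEFs, against 128, 294 and 400.05 in control MEFs. The general leukocyte marker Ptprc had 65.1 in CNOT3-depleted MEFs and 62.7 in control MEFs at 0 h. Over the 13 markers the median log2 fold at 0 h was 0.40, against 0.06 over all named genes. The summed signal of the 13 markers was 3967 in CNOT3-depleted MEFs and 2720 in control MEFs at 0 h, and at 6 and 12 h it was 4459 and 5475 in CNOT3-depleted MEFs, set against 4739 and 5519 for control MEFs. Of the sums at 0 h, Lyz2 made up 1728 in CNOT3-depleted MEFs and 1157 in control MEFs. Of 10 epithelial markers 6 were higher, among them Krt8 at 2.60-fold and the stabilized Sfn at 1.55-fold, and 1 was lower, Cldn4, at least 4.22-fold. At 6 and 12 h Cldn4 was within 1.5-fold, at 1.06-fold lower each time. Of the 6, Cdh1 and Krt14 rested on a control signal near background, and 4 were left with the 25th percentile floor. The summed signal of the 10 lay between 2621 and 3000.5 in CNOT3-depleted MEFs and between 1177 and 1427 in control MEFs. Of 8 endothelial markers 2 were higher and 3 lower, of which Tie1 (higher) and Vwf (lower) were near background in both cultures. With the 25th percentile floor 1 was higher and 2 lower, and with median or ribosomal protein scaling 1 was lower. The endothelial sums lay between 312 and 404 in CNOT3-depleted MEFs and between 344 and 458 in control MEFs. No marker of these lists was at 0, since the lowest deposited signal is 1. The part of these markers in the chemokine values was not tested.

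Genes with the most similar course over the 6 arrays were found by the Euclidean distance between centred log2 signals, among 9092 named genes at or above the median. Nearest to Ccl7 were Arsi (distance 0.17), Gramd1b (0.37) and Mrvi1 (0.38). Arsi, a sulfatase gene, had 534, 360.4 and 468 at 0, 6 and 12 h in CNOT3-depleted MEFs, against 173, 145 and 156 in control MEFs. Nearest to Cxcl12 were Mbnl3 (0.16), Mtm1 (0.40) and Kntc1 (0.41), and nearest to Cxcl10 were Dsp (0.27), Bdh2 (0.32) and Adssl1 (0.59). Dsp, the desmosomal gene desmoplakin, had 443, 628 and 534 in CNOT3-depleted MEFs, against 96.2, 213 and 224 in control MEFs. Nearest to Il6 were the immediate-early gene Ier2 (0.69), Cnot3 itself (0.73) and Zfp800 (0.80), and nearest to Cxcl5 was 1810013L24Rik (0.53). Ccl2 was nearest to Gadd45b (0.27), Cxcl1 to Rbms3 (0.28), Lif to Ddx19b (0.18) and Il11 to Ace (0.12). Ccl5 had no close match, the nearest being Kcnj11 (1.09). With 6 arrays and no replicates, a small distance says only that the signals ran alike.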

How the data were processed

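RNA from CNOT3-depleted and control MEFs at 0, 6 and 12 h of Act. D was hybridized by the authors to mouse GeneChip arrays. The authors deposited a MAS5 intensity for each probe set, unlogged, with a lowest value of 1. Neither the MAS5 version and scaling target nor a genome build is given in the sources used here. Of 45037 probe sets, the platform annotation names 1 gene for 34945, several for 932 and none for 9160. The gene identifier of 34741 was found in the RefSeq list (GRCm38.p6, names and gene order only), and 0 symbols differed.

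No further scaling was applied. Folds, percentages left and log2 stabilization were computed per probe set, and each gene was read first at its brightest probe set (mean log2 signal over the arrays). A difference was more than 1.5-fold. Arrays cannot be tested without replicates. Genes named were the members, Cnot3, in each list the 3 largest absolute folds at 0 h with a signal above the 25th percentile and the stabilized genes, and the 3 nearest patterns of each member. Any other gene was named with its values in view. The members, lists and rules were chosen with earlier results of these data known. Alternatives were 3 scalings, a floor, filters on dim probe sets, other folds and other probe sets. Simulated data with known folds were used to test the scripts' counts. Python 3.11.15, numpy 2.4.6, pandas 2.3.3 and matplotlib 3.10.9 were used.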

Additional observations from a re-analysis of the deposited data

Results flagged for a closer look

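Of the 15 probe sets, 2 moved in opposite directions in the 2 cultures after Act. D, and these differences were not tested. The second Cxcl12 probe set was under its 0 h signal at both times in CNOT3-depleted MEFs, with 83.3% and 74.3% left, and above it at both times in control MEFs, with 113% and 116%. Its log2 stabilization was -0.54, and the brightest Cxcl12 probe set, at -0.79, grew in both cultures. Lif at its dimmer probe set gave 4.92, 11.8 and 48.5 over the 3 times in CNOT3-depleted MEFs, against 32.9, 6.99 and 14.9 in control MEFs. Its log2 stabilization was 3.97, but 4 of its 6 signals were near background, and the brighter Lif probe set was at -0.35.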

How the results depend on the processing

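No paired analysis was possible because the labels give no replicate numbers, and the 3 times are conditions rather than replicates. Of the recomputed counts of member probe sets, 38 stayed within 1.5 times the reported count and 5 did not. When dim probe sets (under the median) were dropped, the number higher was 1 at 0 h (in place of 2, since Cxcl10 is dim), 1 at 6 h and 2 at 12 h (in place of 4 each). At 6 h it was also 2 with the 25th percentile floor and 2 with a 2-fold limit, which left Ccl7 and Cxcl10. The number stabilized was 1 under every alternative. Of the recomputed log2 values of members, 98 moved by less than 1.5-fold, 6 moved further and 2 whose reported value was past 1.5-fold changed sign. Smaller values also changed sign, 7 times with a move under 1.5-fold and 3 times with a larger move. The log2 stabilization of Ccl5 was -1.24 with the 25th percentile floor (0.93 without), and that of Cxcl1 was 0.0074 at the median over its probe sets, against a negative value at the brightest. The log2 fold of Lif at 0 h was -1.40 at the median over both probe sets, and that of Ccl5 was -0.98 with the floor. The log2 stabilization of Ccl7 was 0.08, or -0.56 with quantile normalization. Scaling to 42 ribosomal protein genes shifted the log2 medians over all probe sets, by 0.12 at 0 h and by 0.51 for stabilization. It turned the log2 stabilization of Ccl2 (0.42) and Lif (0.16), which stayed under these shifts, and no called fold at 0 h. The medians of the gene lists were recomputed with alternatives chosen after seeing the data, and 104 moved by less than 1.5-fold. Of the lists' counts at 0 h under these alternatives, 81 stayed within 1.5 times and 23 did not. With each of the 3 scalings, 3 receptors (in place of 5) and 1 gene of NF-kB subunits and inhibitors (in place of 2) were lower. With ribosomal protein scaling 8 inducers and sensors (in place of 5) were higher. Signals near background limit Ccl5 and the dim probe sets of Lif and Cxcl12.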

Other observations

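Of 16 genes for other cytokines and growth factors measured, 2 exceeded control MEFs by over 1.5-fold at 0 h after CNOT3 depletion and 7 were lower, against 19.5% and 15.7% of all named genes. With each of the 3 other scalings 4 were higher, Hgf and Il33 being added. With median or ribosomal protein scaling 6 were lower, Csf1 dropping out. Il15, which supports natural killer cells, and Il1rn, the IL-1 receptor antagonist, were higher. The 7 lower were Csf1, Csf3, Tslp, Kitl, Fgf7, Hbegf and Tnfsf11. Tslp, an epithelial and stromal cytokine that acts on dendritic cells, had 64.4, 57.8 and 94.3 at 0, 6 and 12 h in CNOT3-depleted MEFs, against 171, 215 and 256 in control MEFs, 2.66-fold lower at 0 h. Csf3 was at least 2.12-fold lower at 0 h and near background in CNOT3-depleted MEFs. It was 1.43-fold higher at 6 h and at least 4.34-fold lower at 12 h. Tnfsf11, which encodes RANKL, had 269, 207 and 201 in CNOT3-depleted MEFs, against 646, 123 and 33.2 in control MEFs. It was lower at 0 h and stabilized, with 74.9% left at 12 h in CNOT3-depleted MEFs and 5.13% in control MEFs.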
